A study of Homo sapiens with 48 samples.

Results

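The 9 genes described here encode complement components and their regulators: C3, CFB, CFD, C1R, C1S, CFI, SERPING1, CD55 and CD46. They were chosen by symbol from the 29744 genes of the deposited count table, and 5 of them (C3, C1R, C1S, CD55 and CD46) had enough counts to be tested. Expression was measured by RNA sequencing in 48 libraries of IL11mNG fibroblasts, from an immortalized human skin fibroblast line (CRL-4001). Their IL11 activity is read out by the fluorescent protein mNeonGreen. They were grown from sorted single-cell clones, and whether all cells came from the same clone is not given in the sources used here. The comparisons address how the fibroblast response to the cytokines TGFβ and IL-1β depends on the transcription factor GLIS3. All cells received 10 ng/ml of each cytokine for 0, 6, 12 or 24 h in a reverse time course and were collected together, with 3 libraries for each of the 16 conditions.

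In the CRISPRko arm the fibroblasts carried Cas9 and received a lentiviral non-targeting guide RNA (H47_Ctrl) or a GLIS3 guide RNA (H47_KO), and the knockout was a selected bulk population whose cells could carry different edits. In the CRISPRa arm the fibroblasts carried dCas9–VP64, an inactive Cas9 joined to a transcriptional activator, with a non-targeting guide (VP64_Ctrl) or a guide to the GLIS3 promoter (VP64_A). Titles and descriptions of the CRISPRa libraries name opposite groups, so these groups are called by their descriptions. In CPM, that is counts relative to a fixed library total, GLIS3 ranged from 13.5 to 38.02 in VP64_A and from 2.31 to 5.29 in VP64_Ctrl, and it lay between 0.146 and 2.46 in H47_KO and between 1.55 and 8.63 in H47_Ctrl. The labels do not state whether the 3 libraries of a condition came from separate cultures, so p-values measure the spread between these libraries, which may be technical.

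Complement is a protein cascade that tags surfaces with fragments of C3, recruits leukocytes and can lyse cells. The classical route starts when C1q activates the proteases C1r and C1s, the alternative route amplifies C3 cleavage through factors B and D, and inhibitors in plasma and on host membranes stop the cascade. The liver makes most circulating components, and fibroblasts are among the tissue cells known to make some of them locally, C3 in particular when stimulated with inflammatory cytokines.

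By role the 9 genes fall into 4 groups. C3 encodes the central component whose cleavage all routes share, and it lies on chromosome 19 (GRCh38, 6677704 to 6730562, minus strand). CFB and CFD encode the alternative route's factor B, which forms its C3-cleaving enzyme, and factor D, the protease that cleaves factor B. They lie on chromosome 6 (31945650 to 31952086, plus strand) and chromosome 19 (859453 to 867884, plus strand). C1R and C1S encode the classical route's proteases and lie near each other on chromosome 12, C1R from 7080214 to 7092540 on the minus strand and C1S from 6988259 to 7071032 on the plus strand. The regulators are CFI on chromosome 4 (109731008 to 109802150, minus strand), the protease that inactivates C3b, SERPING1 on chromosome 11 (57597387 to 57619171, plus strand), the inhibitor of C1r and C1s, and the membrane proteins CD55 and CD46 on chromosome 1 (207321519 to 207386804 and 207752037 to 207795513, plus strand). CD55 speeds the decay of the C3-cleaving enzymes, and CD46 is a cofactor for the cleavage of C3b by factor I. In the annotation (GENCODE v44) the span of C3 overlaps GPR108, that of CFB overlaps C2 and that of C1R overlaps C1RL, each on the same strand, and CFD and C1S overlap MED16 and LPCAT3 on opposite strands. Whether the counting used strand is not given in the sources used here.

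RefSeq (GRCh38.p14) promoter windows were at hand for 6 of the 9 genes, and the 250 bases before the start are printed for 4 of them, so that members with different behaviour can be set side by side. CD55 rose with the cytokines in every group and C1R in 3 of 4, CD46 was not called higher in any group, and CFB stayed near the limit of detection. Capitals mark matches to the motifs searched on both strands of each window together with the 50 bases that follow the start. The windows of CFB, C1R and CD55 reach into the longer gene spans of GENCODE. The windows lie at chr6:31945845-31946094 (CFB, plus strand), chr12:7092446-7092695 (C1R, minus strand), chr1:207321428-207321677 (CD55, plus strand) and chr1:207751788-207752037 (CD46, plus strand), and read 5′ to 3′ on the strand of the gene:
CFB: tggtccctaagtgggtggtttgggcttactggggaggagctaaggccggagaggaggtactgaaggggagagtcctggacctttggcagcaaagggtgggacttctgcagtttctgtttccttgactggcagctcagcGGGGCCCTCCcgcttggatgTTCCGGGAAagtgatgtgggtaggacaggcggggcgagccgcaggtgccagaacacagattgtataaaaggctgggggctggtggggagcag
C1R: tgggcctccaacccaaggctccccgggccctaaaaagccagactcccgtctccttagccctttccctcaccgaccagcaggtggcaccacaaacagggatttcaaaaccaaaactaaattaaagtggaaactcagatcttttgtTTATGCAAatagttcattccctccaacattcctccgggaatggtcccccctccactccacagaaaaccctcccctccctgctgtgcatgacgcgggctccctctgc
CD55: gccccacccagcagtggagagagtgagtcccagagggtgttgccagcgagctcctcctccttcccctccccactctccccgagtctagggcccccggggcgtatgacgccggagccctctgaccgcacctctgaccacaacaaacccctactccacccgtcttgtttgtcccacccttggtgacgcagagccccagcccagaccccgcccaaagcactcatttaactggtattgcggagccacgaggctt
CD46: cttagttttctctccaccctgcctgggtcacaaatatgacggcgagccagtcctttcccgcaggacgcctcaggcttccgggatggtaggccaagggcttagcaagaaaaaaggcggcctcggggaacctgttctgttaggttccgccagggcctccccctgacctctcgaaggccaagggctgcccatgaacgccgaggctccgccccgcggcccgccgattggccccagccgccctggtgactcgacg

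CFB held a match to the kappaB consensus, the sequence bound by NF-κB, at bases -112 to -103 from its start, and a match to the STAT pattern TTCNNNGAA at bases -92 to -84, which reads as a match on both strands. C1R held the C/EBP pattern TTGCNNAA on the opposite strand at bases -106 to -99. CD55, CD46, CFD and CFI held no match to these patterns or to the AP-1 pattern TGANTCA in the searched window. C1R and CD46 each had 2 RefSeq windows, of which only the first was searched and printed. Of 35116 RefSeq promoter windows of this length 11.3% held the kappaB consensus, 10.46% held TTGCNNAA, 7.71% held TGANTCA and 7.66% held TTCNNNGAA. A match describes letters and is not a measured binding site. C3, C1S and SERPING1 had no window in the table used.

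The library totals lay between 2321990 and 10661004 counts. The 8 fibroblast markers checked were detected in every library, with medians of 17341 TPM, the deposited measure of transcript abundance scaled for length, for VIM, 2776 for COL1A2 and 943 for THY1. EPCAM, KDR, TTR, TYROBP and AIF1, which mark epithelial, endothelial, hepatic and myeloid cells, were at 0 in all 48 libraries, and the hepatocyte markers ALB and APOA1 did not exceed 0.337 TPM. SERPINA1, the last of the 4 hepatocyte markers checked, reached 2.88 TPM with a median of 0.881. The sum of the 4 was at most 0.264 TPM in any library at 0 h and between 0.194 and 1.80 at 24 h. Its part in the results was not tested. The epithelial keratin KRT14 reached 78.9 TPM in VP64_A. The cytokine target IL6 rose 24 h after addition in every group, by 6.80 to 8.47 on the log2 scale.

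On the TPM scale 4 members were well expressed in every library and 5 were low. CD55 had a median of 56.0 TPM over the 48 libraries (25.6 to 176), C1S 47.6 (23.5 to 172), CD46 47.1 (18.7 to 85.5) and C1R 39.6 (12.6 to 156). C3 had a median of 0.864 TPM and ranged from 0 to 18.1, and CFD (median 0.488), CFB (0.230), CFI (0) and SERPING1 (0) did not exceed 2.71 TPM in any library. The order of the levels changed with the cytokines. In H47_Ctrl at 0 h, CD46 was highest with 64.8 ± 2.60 TPM (SD, n = 3), followed by C1S with 49.2 ± 5.63, CD55 with 44.8 ± 4.55 and C1R with 42.9 ± 8.05, and the last 3 lay within their spread of each other. At 24 h CD55 led in H47_Ctrl with 130.5 ± 16.9 TPM, ahead of C1S (71.6 ± 15.2), C1R (57.1 ± 6.91) and CD46 (45.6 ± 9.07), of which neighbours in this order lay within their spread. In VP64_Ctrl at 24 h C1S with 142 ± 28.1 TPM and C1R with 140.0 ± 18.5 led together, above CD55 (91.4 ± 14.4) and CD46 (49.0 ± 12.8), and in VP64_A C1S (105 ± 17.04), C1R (95.9 ± 11.6) and CD55 (93.0 ± 4.67) lay within their spread.

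At 24 h after cytokine addition C3, CD55 and C1S were called higher in all 4 groups and C1R in 3, all but H47_Ctrl. CD55 was called higher already at 6 h. Counts were fitted with edgeR's quasi-likelihood test, the threshold for a call was 0.05 on p-values adjusted by Benjamini-Hochberg across every gene tested, and values below are CPM on library sizes scaled by the trimmed mean of M-values (normalized CPM). At 24 h, 3 of the 5 tested members were higher than at 0 h in H47_Ctrl, where 6.53% of all tested genes were higher, and 4 were higher in H47_KO (9.07% of all genes) and VP64_Ctrl (10.4%). In VP64_A 4 were called at 24 h, all higher, where 13.6% of all genes were called in either direction and 988 of 10980 were called higher. At 6 h the members called higher numbered 1 in H47_Ctrl (10.3% of all genes) and 2 each in H47_KO (13.2%), VP64_Ctrl (16.2%) and VP64_A (11.4%). At 12 h they numbered 2 in H47_Ctrl (11.3% of all genes), 2 in H47_KO (14.4%), 4 in VP64_Ctrl (15.3%) and 2 in VP64_A (12.6%). With 5 genes, 1 call is already above the background share, so the counts are read with the values that follow. C3 had enough counts to be tested only through libraries with cytokines, so its calls against 0 h depend in part on this selection. With libraries scaled by their totals, the share of all calls that were higher went from 55.0% to 13.5% in H47_KO at 6 h, from 52.4% to 25.6% in H47_KO at 12 h and, at 6, 12 and 24 h, from 56.1%, 57.0% and 65.1% to 9.11%, 11.1% and 17% in VP64_Ctrl. In VP64_A at these times it went from 65.9%, 63.9% and 66.4% to 42.8%, 39.3% and 30.2%, and in H47_Ctrl at 12 h and 24 h from 57.8% and 63.6% to 43.3% and 43.4%. C3 and CD55 at 24 h in every group, and C1R and C1S at 24 h in H47_KO, VP64_Ctrl and VP64_A, were called higher on this scale too. The median log2 change of the tested members at 24 h was 0.75 in H47_Ctrl, 1.32 in H47_KO, 1.94 in VP64_Ctrl and 1.77 in VP64_A, and that of all genes lay between -0.00 and 0.02. RNA from a culture gives the sum over its cells, so more RNA per cell and a change in the number of expressing cells cannot be told apart.

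C3 had the largest change at 24 h among the tested members in every group. At 0 h its 3 libraries together held 21 counts in H47_Ctrl, 6 in H47_KO, 7 in VP64_Ctrl and 24 in VP64_A. These were too few to pass the filter on low counts without the later libraries, so the filter favoured a rise from 0 h. In H47_Ctrl its normalized CPM were 1.49, 1.13 and 0.810 in the 3 libraries at 0 h, 2.16, 1.19 and 3.19 at 6 h, 8.09, 2.62 and 2.54 at 12 h, and 24.4, 17.3 and 18.3 at 24 h. All libraries at 12 h and 24 h were above all libraries at 0 h, while those at 6 h overlapped them. The log2 change from 0 h was 0.83 ± 0.56 (SE) at 6 h, which did not pass the test (edgeR adjusted p = 0.38), 1.85 ± 0.55 at 12 h (adjusted p = 0.015) and 4.05 ± 0.47 at 24 h (adjusted p = 7.2e-08). The call at 12 h was lost without H47_Ctrl replicate 2 at 0 h (edgeR adjusted p = 0.051) or without replicate 1 at 12 h, the highest library of that time, where the change was 1.09 (adjusted p = 0.28). On log2(TPM + 1) it was 0.66 and did not pass in limma (adjusted p = 0.11). The mean of C3 at 0 h was 0.369 TPM in H47_Ctrl and lower in H47_KO (0.0861), VP64_Ctrl (0.0821) and VP64_A (0.282). These lie below the added 1, which makes changes of C3 from 0 h smaller on that scale by construction.

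In H47_KO the normalized CPM of C3 were 0, 0.721 and 0.132 at 0 h, 3.09, 0 and 1.61 at 6 h, 2.90, 4.67 and 2.35 at 12 h, and 27.2, 30.04 and 21.02 at 24 h. A library at 6 h was as low as the lowest at 0 h, and from 12 h on the libraries were all above those at 0 h. The summed counts rose from 6 at 0 h to 578 at 24 h, a ratio of 81.6 after scaling (95% interval for counting error only, 37.3 to 223). The log2 change was 2.44 ± 0.81 at 6 h (edgeR adjusted p = 0.028), 3.41 ± 0.64 at 12 h (adjusted p = 0.00013) and 6.34 ± 0.55 at 24 h (adjusted p = 1.1e-10). The call at 6 h was lost when any of 4 single libraries was left out, H47_KO replicates 1 and 3 at 0 h and at 6 h, with changes of 1.64 to 2.51 and edgeR adjusted p from 0.059 to 0.30. It was also lost with libraries scaled by their totals (1.99, edgeR adjusted p = 0.055) and on log2(TPM + 1) in limma (0.32, adjusted p = 0.35).

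In VP64_Ctrl C3 had 0.248, 0.249 and 0.1497 normalized CPM at 0 h and 46.7, 43.7 and 55.5 at 24 h. Between these times it lay at 3.29, 5.80 and 1.74 at 6 h and at 8.68, 11.3 and 9.38 at 12 h, so each time was above the one before in all libraries. The libraries at 0 h held 3, 3 and 1 counts. Against these 7 counts, the 881 counts at 24 h gave a ratio of 221 with a counting interval of 107 to 550, the 139 counts at 12 h a ratio of 43.5 (20.6 to 110) and the 49 counts at 6 h a ratio of 17.04 (7.68 to 44.6). The fitted log2 changes, which depend on the prior count where counts are this low, were 3.97 ± 0.46 at 6 h, 5.31 ± 0.39 at 12 h and 7.62 ± 0.35 at 24 h (edgeR adjusted p = 3.6e-08, 1.8e-12 and 4.0e-17).

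In VP64_A the normalized CPM of C3 were 0.859, 1.13 and 0.824 at 0 h, 2.71, 1.49 and 4.66 at 6 h, 8.06, 8.59 and 7.97 at 12 h, and 42.8, 31.6 and 33.2 at 24 h. The times did not overlap. Against 0 h the log2 change at 6 h was 1.60 ± 0.39, at 12 h 3.11 ± 0.33 and at 24 h 5.23 ± 0.30 (edgeR adjusted p = 0.0035, 8.2e-09 and 6.1e-15), and the call at 6 h was lost without VP64_A replicate 3 at 6 h (1.15, adjusted p = 0.072) and on log2(TPM + 1) in limma (0.42, adjusted p = 0.25).

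**Figure D1:**
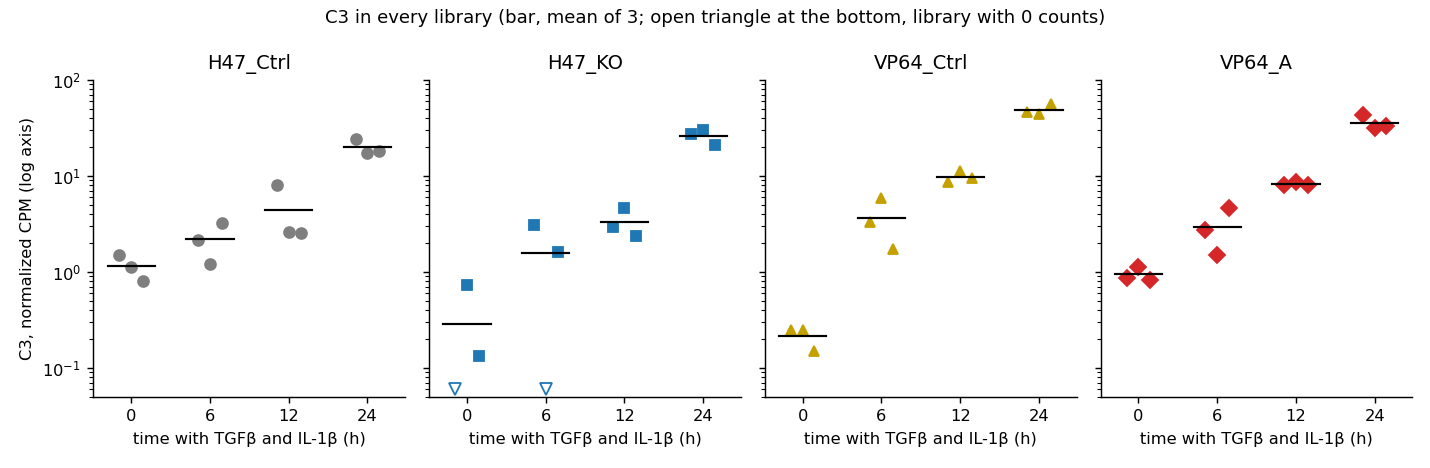
Normalized CPM of C3 in each of the 48 libraries, on a log axis, by hours with TGFβ and IL-1β and by group of cells, with libraries without a count drawn at the bottom. At 24 h the libraries sit between 17.3 and 24.4 in H47_Ctrl, 21.02 and 30.04 in H47_KO, 31.6 and 42.8 in VP64_A, and 43.7 and 55.5 in VP64_Ctrl, all above every library at 0 h.

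The alternative route's own factors stayed near the floor. CFB had 122 counts over all 48 libraries, was at 0 in 12 of them and exceeded 3 counts in 10, and CFD had 107 counts, was at 0 in 13 libraries and exceeded 3 counts in 11. A floor of 3 counts corresponds to 0.281 CPM in the deepest library and 1.29 in the shallowest. Neither gene passed the filter on low counts in either arm, so neither was tested.

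The highest counts of CFB were 14 and 13, both in replicate 1 of VP64_Ctrl, at 24 h and at 0 h. In VP64_Ctrl at 24 h the libraries held 14, 4 and 5 counts and at 0 h they held 13, 3 and 0, a ratio of 2.52 after scaling with a counting interval of 1.27 to 5.10. The spread between libraries was wider than this interval, since the libraries of both times overlapped in counts. CFD was highest in H47_KO at 0 h with 6, 7 and 8 counts, against 1, 2 and 0 in H47_Ctrl, a ratio of 6.01 with a counting interval of 1.79 to 31.5. At 24 h CFD had at most 3 counts in any library of the 4 groups. Both comparisons were chosen after their values were seen, and the intervals cover counting error only.

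**Figure D2:**
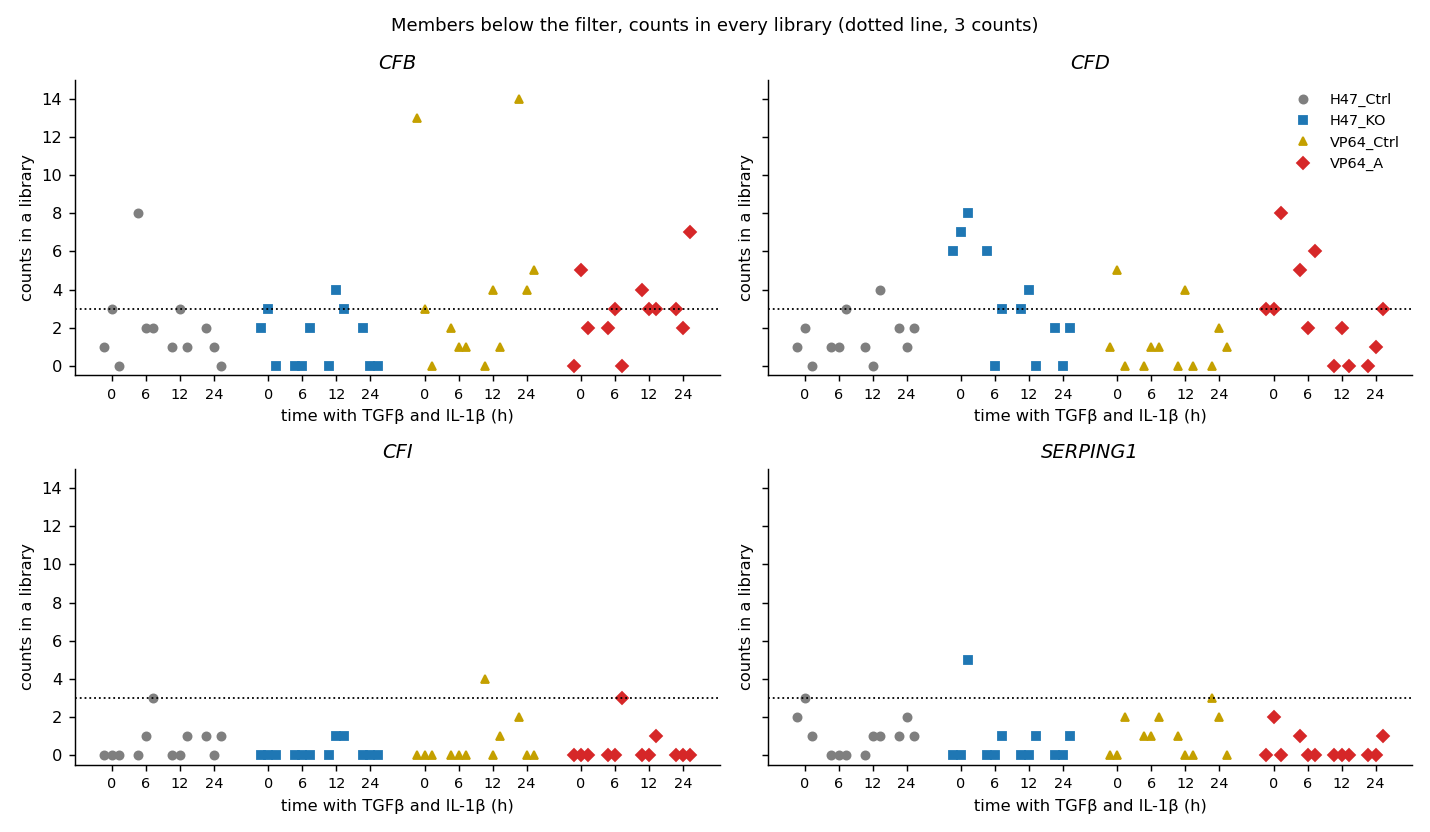
Counts of CFB, CFD, CFI and SERPING1 in each library by time and group of cells, with the floor of 3 counts as a line. CFB and CFD exceed the line in 10 and 11 of 48 libraries, CFI and SERPING1 in 1 each.

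The classical route's proteases rose late. C1R had 24.3, 31.7 and 21.1 normalized CPM at 0 h and 43.8, 35.99 and 37.6 at 24 h in H47_Ctrl. The libraries did not overlap, but the log2 change of 0.60 ± 0.21 did not pass the test (edgeR adjusted p = 0.067), and it passed when H47_Ctrl replicate 2 at 0 h was left out (0.78, adjusted p = 0.039). In H47_KO C1R went from 18.2, 20.2 and 17.2 at 0 h to 66.3, 41.9 and 31.3 at 24 h, a log2 change of 1.32 ± 0.21 (edgeR adjusted p = 1.5e-05). The 3 libraries of H47_KO at 24 h spread more widely than those of any other group at that time relative to their mean.

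In VP64_Ctrl C1R had 21.3, 27.3 and 18.9 normalized CPM at 0 h, 43.2, 34.3 and 35.5 at 12 h, and 105, 72.9 and 81.8 at 24 h. It was higher at 12 h by 0.74 ± 0.17 on the log2 scale (edgeR adjusted p = 0.0018) and at 24 h by 1.94 ± 0.17 (adjusted p = 1.7e-10), and the 3 times did not overlap. With libraries scaled by their totals the change at 12 h was 0.15 and did not pass (edgeR adjusted p = 0.59), nor did it on log2(TPM + 1) in limma (0.16, adjusted p = 0.55). In VP64_A it went from 25.2, 21.9 and 19.1 at 0 h to 82.3, 61.4 and 73.3 at 24 h, by 1.71 ± 0.17 (edgeR adjusted p = 4.0e-09), and at 12 h its 23.4, 26.4 and 25.6 overlapped the libraries at 0 h.

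The count table also holds a row named C1R-2, whose nature is not given in the sources used here. It held 51.0% to 67.2% of the summed counts of C1R and C1R-2, with a median of 61.7%, so the level of C1R depends on how reads were shared between these rows. The row C1R-2 changed by 0.56 (edgeR adjusted p = 0.073), 1.23, 2.11 and 1.80 on the log2 scale at 24 h in H47_Ctrl, H47_KO, VP64_Ctrl and VP64_A, close to the values of C1R. With both rows summed, the change in H47_Ctrl at 24 h was 0.58 and passed the test (edgeR adjusted p = 0.047).

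C1S had 84.5, 84.2 and 71.6 normalized CPM at 0 h and 113, 139 and 153 at 24 h in H47_Ctrl, with no overlap, a log2 change of 0.75 ± 0.19 (edgeR adjusted p = 0.0068). Without H47_Ctrl replicate 3 at 24 h, the highest library, this call was lost (0.64, edgeR adjusted p = 0.059), as it was with libraries scaled by their totals (0.53, adjusted p = 0.19) and on log2(TPM + 1) in limma (0.52, adjusted p = 0.36). In H47_KO it went from 66.8, 79.9 and 73.9 to 172, 148 and 90.1, by 0.89 ± 0.19 (edgeR adjusted p = 0.00077). In VP64_Ctrl it went from 49.4, 77.6 and 61.7 at 0 h over 142, 101 and 114 at 12 h to 321, 202 and 215 at 24 h, and in VP64_A from 57.3, 47.5 and 50.2 at 0 h to 265, 181 and 231 at 24 h. The log2 changes at 24 h were 1.97 ± 0.19 in VP64_Ctrl and 2.13 ± 0.19 in VP64_A (edgeR adjusted p = 1.3e-09 and 3.0e-10), and the change in VP64_Ctrl at 12 h was 0.92 ± 0.19 (adjusted p = 0.00036). The call at 12 h was lost with libraries scaled by their totals (0.29, edgeR adjusted p = 0.21) and on log2(TPM + 1) in limma (0.32, adjusted p = 0.25). At 6 h the changes of C1R and C1S lay between -0.24 and 0.07 on the log2 scale in the 4 groups, and none passed the test.

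CFI and SERPING1, the soluble regulators, were hardly detected. CFI had 20 counts over the 48 libraries, at most 4 in a library and 0 in 36 of them, and all 12 libraries at 0 h were at 0. SERPING1 had 36 counts, was at 0 in 26 libraries and had its highest count, 5, in H47_KO replicate 3 at 0 h. Neither gene passed the filter on low counts, so neither was tested. The summed counts of a condition were at most 5 for CFI and 6 for SERPING1. The upper limits of their counting intervals lay between 0.158 and 0.780 CPM for CFI and between 0.235 and 0.832 for SERPING1. They bound the level in a condition and do not give the smallest difference that could be detected.

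CD55 was called higher at every time after cytokine addition in every group, although its direction at 6 h in H47_KO and at 6 h and 12 h in VP64_Ctrl turned on other scales. In H47_Ctrl it had 62.4, 53.9 and 52.4 normalized CPM at 0 h, 107, 80.6 and 90.1 at 6 h, 65.8, 92.2 and 111 at 12 h, and 170.0, 224 and 201 at 24 h. In H47_KO it had 43.5, 40.5 and 55.0 at 0 h, 59.3, 72.4 and 62.3 at 6 h, 109, 90.5 and 101 at 12 h, and 183, 152 and 159 at 24 h. In both groups all libraries at 6, 12 and 24 h were above all libraries at 0 h.

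In VP64_Ctrl CD55 had 40.8, 38.9 and 36.8 normalized CPM at 0 h, 61.3, 63.3 and 66.6 at 6 h, 64.9, 53.8 and 64.5 at 12 h, and 112, 126 and 123 at 24 h. In VP64_A it had 46.2, 41.9 and 45.1 at 0 h, 82.3, 97.5 and 107 at 6 h, 99.8, 82.9 and 110 at 12 h, and 155, 149 and 150 at 24 h. The levels at 6 h and 12 h overlapped in both groups, and those at 24 h lay above all others. The log2 change of CD55 at 24 h was 1.81 ± 0.17 in H47_Ctrl, 1.83 ± 0.17 in H47_KO, 1.63 ± 0.14 in VP64_Ctrl and 1.77 ± 0.14 in VP64_A (edgeR adjusted p from 1.1e-11 to 1.0e-09).

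At 6 h CD55 had changed by 0.72 ± 0.17 in H47_Ctrl, 0.47 ± 0.18 in H47_KO, 0.71 ± 0.14 in VP64_Ctrl and 1.11 ± 0.14 in VP64_A (edgeR adjusted p = 0.0023, 0.047, 0.00031 and 2.5e-07). Its call in H47_KO at 6 h was lost when any of 10 single libraries was left out, most of all H47_KO replicate 2 at 0 h (0.38, edgeR adjusted p = 0.18). When each library was scaled by its total in place of the trimmed mean, the median change of all genes at 6 h became -0.61 in H47_KO and -0.79 in VP64_Ctrl, and CD55 changed by -0.09 and -0.03. Relative to that median CD55 was higher by 0.52 and 0.75, so its direction at 6 h in these groups holds relative to the other genes and not relative to the library total. On log2(TPM + 1), which is likewise relative to a fixed total, the change was -0.09 in H47_KO at 6 h and -0.34 and -0.10 in VP64_Ctrl at 6 h and 12 h, none past the threshold in limma. The calls of CD55 in H47_Ctrl at 6 h and 12 h were lost with libraries scaled by their totals (0.67 and 0.49, edgeR adjusted p = 0.066 and 0.18) and on log2(TPM + 1) in limma (0.55 and 0.46, adjusted p = 0.34 and 0.36). Its call in H47_KO at 12 h was lost in limma (0.79, adjusted p = 0.078).

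CD46 was not called higher at any time in any group. Its 12 libraries lay between 84.7 and 130 normalized CPM in H47_Ctrl, between 86.2 and 188 in H47_KO, between 56.3 and 112 in VP64_A and between 60.8 and 130.3 in VP64_Ctrl. Among its 12 tests over time 1 passed: in H47_KO it went from 165, 127 and 121 at 0 h to 110, 86.2 and 99.6 at 24 h, without overlap, and fell by 0.48 ± 0.15 on the log2 scale (edgeR adjusted p = 0.030), where 6.78% of all genes were lower. This call was lost without H47_KO replicate 1 at 0 h (edgeR adjusted p = 0.23), replicate 2 at 24 h (0.15) or replicate 3 at 24 h (0.076), and with libraries scaled by their totals (-0.40, adjusted p = 0.21). At 24 h the log2 change was -0.30 ± 0.16 in H47_Ctrl, 0.24 ± 0.21 in VP64_Ctrl and 0.25 ± 0.21 in VP64_A, and none of these passed. With libraries scaled by their totals the values in VP64_Ctrl and VP64_A were -0.18 and -0.06.

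**Figure D3:**
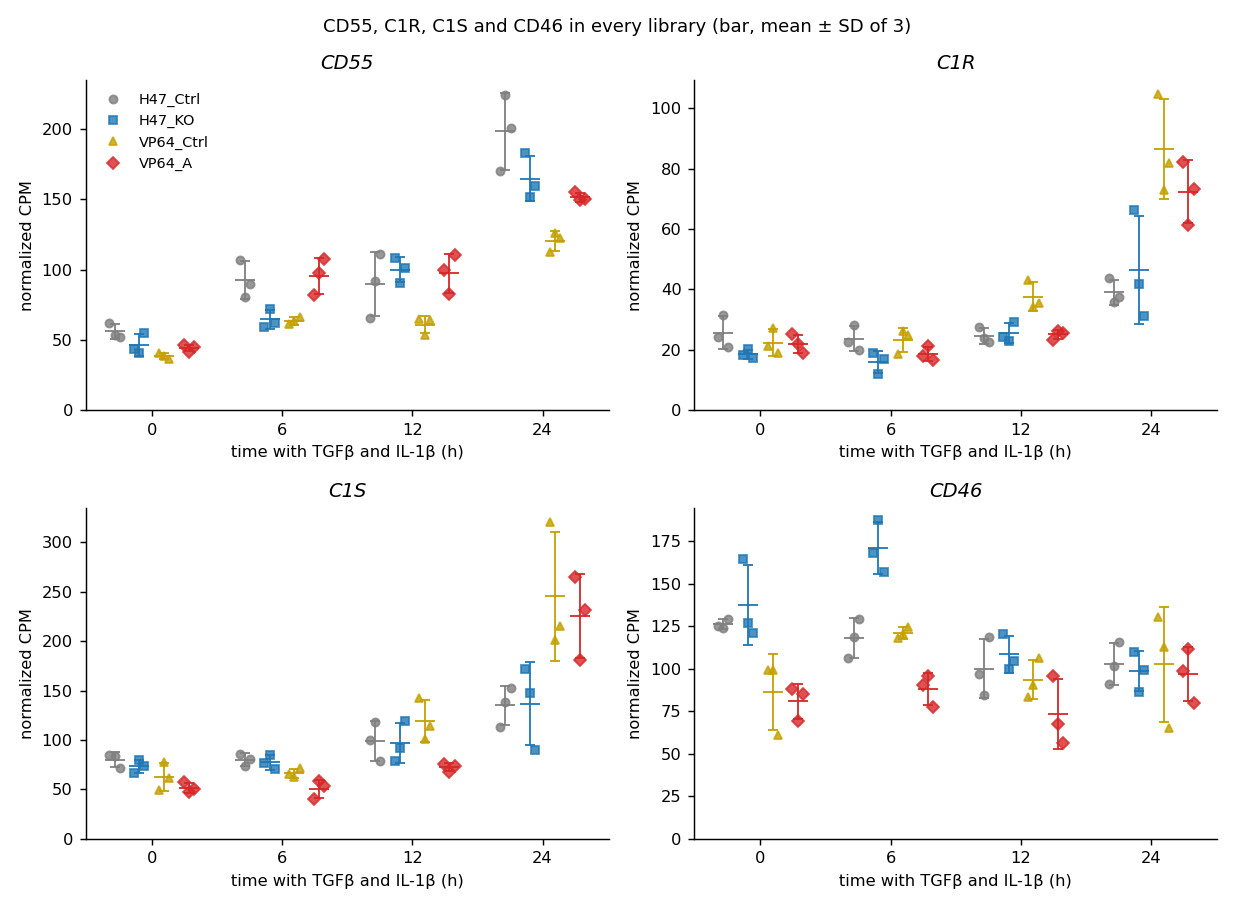
Normalized CPM of CD55, C1R, C1S and CD46 by time since cytokine addition for the 4 groups of cells, with a point for each library and bars for the mean ± SD of 3. C1R, C1S and CD55 reach their highest values at 24 h, with C1S up to 321 and CD55 up to 224, and CD46 stays within 56.3 to 188.

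The members were also compared between 12 h and 24 h, a comparison added after the data were seen. C3 was higher at 24 h than at 12 h in all 4 groups, by 2.20 ± 0.43 in H47_Ctrl, 2.92 ± 0.40 in H47_KO, 2.31 ± 0.24 in VP64_Ctrl and 2.12 ± 0.25 in VP64_A on the log2 scale. CD55 was higher in all 4 groups by 0.64 to 1.14. C1R was called in H47_KO (0.87 ± 0.21), VP64_Ctrl (1.202 ± 0.17) and VP64_A (1.52 ± 0.18), and C1S in VP64_Ctrl (1.05 ± 0.19) and VP64_A (1.64 ± 0.19). The call of C1R in H47_KO was lost without H47_KO replicate 1 at 24 h (0.50, edgeR adjusted p = 0.071). On log2(TPM + 1) in limma CD55 was not called in H47_Ctrl (1.06, adjusted p = 0.054) or VP64_A (0.58, adjusted p = 0.19), and on log2(TPM + 0.1) C3 was not called in H47_Ctrl (2.23, adjusted p = 0.056). In all, 2, 3, 4 and 4 of the 5 tested members were called in H47_Ctrl, H47_KO, VP64_Ctrl and VP64_A, all higher, where 4.04%, 8.56%, 4.58% and 3.09% of all genes were higher.

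The summed TPM of the 6 macrophage markers rose alongside C3, C1R, C1S and CD55 in some groups. It lay between 35.4 and 49.4 at 0 h and between 55.1 and 69.9 at 24 h in VP64_Ctrl, between 15.6 and 19.6 and between 30.7 and 37.8 in VP64_A, and between 27.3 and 44.05 and between 37.7 and 58.2 in H47_KO, while in H47_Ctrl it was 16.7 to 20.6 and 16.9 to 23.6. Nearly all of this sum was CD68 (13.6 to 69.6 TPM over the 48 libraries), a lysosomal protein gene that fibroblasts also express. CD14 and CSF1R did not exceed 2.35 and 2.46 TPM, PTPRC did not exceed 0.505, and TYROBP and AIF1 were at 0. The part of such cells in the results was not tested.

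No tested member passed the threshold between H47_KO and H47_Ctrl. Averaged over the 4 times, 0 of 5 members were called between H47_KO and H47_Ctrl, where 3.07% of all genes were, and 2 had an unadjusted p under 0.05. The average log2 difference was -0.56 ± 0.28 for C3, -0.19 ± 0.11 for C1R, -0.05 ± 0.09 for C1S, -0.23 ± 0.08 for CD55 and 0.18 ± 0.08 for CD46 (edgeR adjusted p = 0.33, 0.42, 0.85, 0.15 and 0.23). Approximate 95% intervals, taken from the SE and the normal distribution, reached from -1.12 to -0.00 for C3, from -0.40 to 0.03 for C1R, from -0.24 to 0.13 for C1S, from -0.39 to -0.06 for CD55 and from 0.03 to 0.33 for CD46. They are narrower than the test allows and are not adjusted for the number of genes. That of C3 ended just below 0, although its unadjusted p in edgeR was 0.057.

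Time by time, 0 members were called at 0, 6, 12 and 24 h, with 2, 3, 0 and 0 at an unadjusted p under 0.05, where 0.301%, 0.319%, 0.0821% and 0.210% of all genes were called. C3 at 0 h was lower in every H47_KO library than in every H47_Ctrl library, on 6 against 21 summed counts, a ratio of 4.08 of H47_Ctrl over H47_KO with a counting interval of 1.59 to 12.4, and its log2 difference of -1.93 ± 0.76 did not pass (edgeR adjusted p = 0.29). At 6 h CD46 was higher in H47_KO (168, 188 and 157 normalized CPM) than in H47_Ctrl (106, 119 and 130) without overlap, by 0.53 ± 0.15, which edgeR did not call (adjusted p = 0.13) and DESeq2 did (adjusted p = 0.017). At 24 h the difference was 0.36 ± 0.35 for C3, 0.24 ± 0.21 for C1R, 0.01 ± 0.19 for C1S, -0.26 ± 0.16 for CD55 and -0.05 ± 0.16 for CD46, all with overlapping libraries.

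The cytokine response itself was compared between H47_KO and H47_Ctrl with an interaction term, and 0 members were called at 6 h or 24 h, with 0 and 2 at an unadjusted p under 0.05. Of all genes 0.00912% were called at 6 h and 0% at 24 h. The response at 24 h was larger in H47_KO by 2.29 ± 0.83 for C3 and by 0.72 ± 0.30 for C1R on the log2 scale, both with an edgeR adjusted p of 0.84. The approximate 95% interval for C3, taken in the same way as for the averages, ran from 0.65 to 3.92 and rests on the 6 counts of H47_KO at 0 h.

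In the CRISPRa arm 3 members differed between VP64_A and VP64_Ctrl on average over the 4 times: CD55 was higher, and C1R and C1S were lower. Among all genes 9.15% were higher and 9.23% lower, so that 49.8% of the calls were higher, and 24.9% with libraries scaled by their totals. CD55 was higher by 0.45 ± 0.07 on the log2 scale (edgeR adjusted p = 1.0e-05), C1S was lower by a log2 difference of -0.38 ± 0.10 (adjusted p = 0.0047) and C1R by one of -0.29 ± 0.09 (adjusted p = 0.023). C3 (0.21 ± 0.17, edgeR adjusted p = 0.45) and CD46 (-0.25 ± 0.11, adjusted p = 0.097) did not pass. The call of C1R was lost without VP64_Ctrl replicate 2 at 0 h, replicate 2 at 6 h, replicate 1 at 12 h or replicate 1 at 24 h, with differences of -0.25 to -0.26 and edgeR adjusted p of 0.052 to 0.059.

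**Figure D4:**
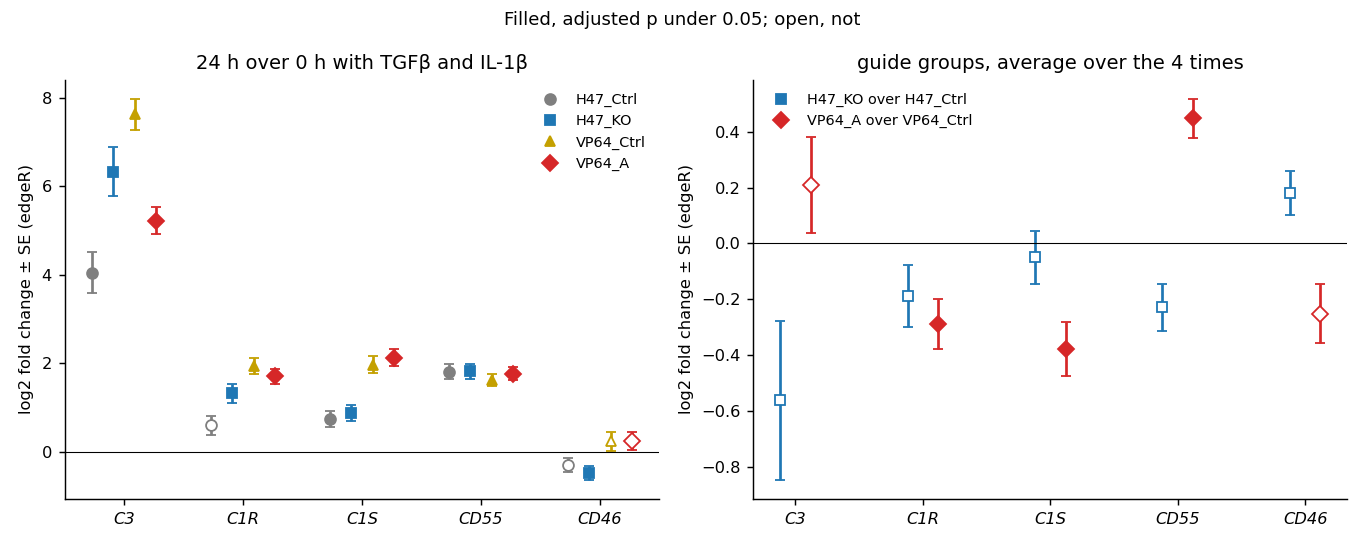
Log2 fold change ± SE from edgeR of the 5 tested members, at 24 h over 0 h in the 4 groups of cells (left) and between the guide groups of each arm on average over the 4 times (right), with filled symbols where the adjusted p was under 0.05. C3 has the highest points on the left, between 4.05 and 7.62, and on the right the filled points are CD55 above 0 and C1R and C1S below 0, all in VP64_A over VP64_Ctrl.

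By time, CD55 was higher in VP64_A at 6 h by 0.59 ± 0.14 and at 12 h by 0.67 ± 0.14 (edgeR adjusted p = 0.0097 and 0.0021), with no overlap of the libraries given above. Its difference was 0.19 ± 0.14 at 0 h and 0.33 ± 0.14 at 24 h, which did not pass. The call at 6 h was lost without VP64_A replicate 3 (0.50, edgeR adjusted p = 0.091) or VP64_Ctrl replicate 1 (0.55, adjusted p = 0.072) of that time.

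C1S was lower in VP64_A at 12 h, with 76.0, 67.8 and 74.1 normalized CPM against 142, 101 and 114 in VP64_Ctrl, a log2 difference of -0.72 ± 0.19 (edgeR adjusted p = 0.022). C1R had 23.4, 26.4 and 25.6 at that time against 43.2, 34.3 and 35.5, without overlap, and its difference of -0.58 ± 0.18 did not pass (edgeR adjusted p = 0.069). Without VP64_Ctrl replicate 1 at 12 h, the highest library of C1S, its difference was -0.57 (edgeR adjusted p = 0.18), and the call was also lost without VP64_A replicate 2 (-0.67, adjusted p = 0.11), VP64_A replicate 3 (-0.73, adjusted p = 0.070) or VP64_Ctrl replicate 3 (-0.75, adjusted p = 0.052) at 12 h. On log2(TPM + 1) in limma neither C1S (-0.78, adjusted p = 0.079) nor CD55 (0.67, adjusted p = 0.10) was called at 12 h.

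C3 was called higher in VP64_A than in VP64_Ctrl at 0 h. At 0 h the VP64_A libraries held 10, 9 and 5 counts and those of VP64_Ctrl 3, 3 and 1, a ratio of 4.12 after scaling with a counting interval of 1.72 to 11.3, and the fitted log2 difference was 1.95 ± 0.53 (edgeR adjusted p = 0.016). The later differences, -0.42 ± 0.35 at 6 h, -0.25 ± 0.26 at 12 h and -0.44 ± 0.22 at 24 h, lay on the other side of 0, none past the threshold. The call at 0 h was lost without VP64_A replicate 2 at 0 h (1.81, edgeR adjusted p = 0.062) or VP64_Ctrl replicate 3 at 0 h (1.83, adjusted p = 0.066). It was also lost on log2(TPM + 1) in limma (0.24, adjusted p = 0.48), where both means, 0.282 and 0.0821 TPM, lay below the added 1. By time the members called numbered 1, 1, 2 and 0 at 0, 6, 12 and 24 h, where 9.41%, 3.76%, 4.31% and 4.13% of all genes were called.

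The interaction term between VP64_A and the cytokines called 0 members at 6 h and 24 h (0.0911% and 0.209% of all genes). At each of these times 1 member had an unadjusted p under 0.05. The response of C3 at 24 h was smaller in VP64_A, by a log2 difference of -2.40 ± 0.57 (edgeR adjusted p = 0.083), and this passed when VP64_A replicate 3 at 6 h was left out (adjusted p = 0.045). At 6 h the difference was -2.375 ± 0.638 (edgeR adjusted p = 0.21). Both values rest on the 7 counts of C3 in VP64_Ctrl at 0 h, and at 24 h itself the groups differed by -0.44 ± 0.22. For C1R, C1S, CD55 and CD46 the interaction at 24 h lay between -0.23 and 0.16. The epithelial marker sum, nearly all KRT14, was 14.1 to 78.9 TPM in VP64_A and 2.17 to 12.8 in VP64_Ctrl, with EPCAM at 0 and CDH1 and KRT5 at or below 0.125, and its part in these differences was not tested.

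The controls of the arms also differed in these genes. On average over the 4 times C1R was higher in VP64_Ctrl than in H47_Ctrl by 0.38 ± 0.10 (edgeR adjusted p = 0.0049), and CD55 was lower by a log2 difference of -0.59 ± 0.08 (adjusted p = 3.4e-08), in a fit of all 48 libraries in which 19.5% of genes were called (52.8% of them higher, and 66.0% with libraries scaled by their totals). C3 (0.25 ± 0.28), C1S (0.13 ± 0.10) and CD46 (-0.15 ± 0.10) did not pass. The arms carry different Cas9 proteins, guides and infections and may differ in clone and handling, which cannot be told apart.

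The response to the cytokines was larger in VP64_Ctrl than in H47_Ctrl for 3 of the 5 tested members at 24 h, a comparison added after the data were seen. The difference of the log2 responses was 3.56 ± 0.72 for C3, 1.33 ± 0.28 for C1R and 1.22 ± 0.28 for C1S (edgeR adjusted p = 0.0072, 0.0086 and 0.018), where 0.420% of all genes had a higher response. For CD55 it was -0.18 ± 0.21 and for CD46 0.53 ± 0.27, and neither passed. At 6 h 0 members were called and 2 had an unadjusted p under 0.05, where 0.429% of all genes were called. The value of C3 rests on the 7 counts of VP64_Ctrl at 0 h. With libraries scaled by their totals C3 was still called (3.46, edgeR adjusted p = 0.037), while C1R (1.13, adjusted p = 0.22) and C1S (0.99, adjusted p = 0.32) were not. On log2(TPM + 1) and log2(TPM + 0.1) in limma the calls numbered 1 and 0. Without H47_Ctrl replicate 1 or 2 at 0 h or VP64_Ctrl replicate 1 at 24 h, 1 of the 3 calls was left.

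Of 44 other genes of the complement system listed for this purpose, 31 had a count in some library, 27 never exceeded 3 counts and 13 were at 0 throughout. In the CRISPRko arm 8 were tested and in the CRISPRa arm 7. At 24 h over 0 h, edgeR called 0 of 8 in H47_Ctrl and in H47_KO, with 0 and 1 at an unadjusted p under 0.05, and 1 of 7 was called higher in VP64_Ctrl and in VP64_A, where the shares of all genes are those given for the members. C4BPB, a chain of the C4b-binding protein, was higher in VP64_Ctrl by 1.71 ± 0.47 (edgeR adjusted p = 0.010), and CD59, which blocks the lytic complex and was named after its values were seen, in VP64_A by 0.84 ± 0.22 (adjusted p = 0.0088). C4BPB had a median of 6.5 counts in a library and at most 26, so it lay near the filter on low counts. The call of C4BPB was lost without VP64_Ctrl replicate 1 at 0 h (1.39, edgeR adjusted p = 0.070) or at 24 h (1.46, adjusted p = 0.085) and with library totals (1.33, adjusted p = 0.058). That of CD59 was lost without VP64_A replicate 3 at 0 h (0.79, adjusted p = 0.054). Before 24 h CD59 was called higher in VP64_Ctrl at 6 h (0.84) and 12 h (0.92), with values down to 0.10 and 0.30 in other settings, and in VP64_A at 12 h (0.66). MASP1 was called lower at 6 h in VP64_Ctrl (-1.45) and VP64_A (-0.78). C4BPB was called higher at 12 h in H47_Ctrl (2.40) and H47_KO (2.08). The calls of CD59 and MASP1 in VP64_A and of C4BPB at 12 h were each lost without some single libraries. The median change of the tested genes of this list at 24 h was 0.05, -0.03, 0.46 and 0.59 in H47_Ctrl, H47_KO, VP64_Ctrl and VP64_A.

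Between the guide groups the widest difference among the listed genes was in CLU, which encodes clusterin, an inhibitor of the lytic complex. CLU had 1090, 1117 and 1024 normalized CPM in VP64_A at 0 h and 39.5, 44.6 and 39.7 in VP64_Ctrl, with no overlap at any time, and its average log2 difference was 4.61 ± 0.11 (edgeR adjusted p = 2.4e-25). In the CRISPRko arm it was lower in H47_KO by an average log2 difference of -0.56 ± 0.08 (adjusted p = 5.0e-05). C4BPB was higher in VP64_A by 1.09 ± 0.25 on average (edgeR adjusted p = 0.0017). In all, 2 of 7 tested genes of the list were called higher and 0 lower in VP64_A, where 9.15% of all genes were higher and 9.23% lower. In H47_KO 0 of 8 were called higher and 1 lower, where 1.98% of all genes were higher and 1.09% lower. Between the controls of the arms 1 of 8 was higher in VP64_Ctrl, C4BPB by 0.99, and 3 were lower, CLU (-0.66), MASP1 (-0.82) and VTN (-2.44), where 10.3% of all genes were higher and 9.20% lower. VTN had a median of 2 counts and at most 17, and passed the filter on low counts in the CRISPRko arm but not in the CRISPRa arm. The filter thus favoured a lower value of VTN in VP64_Ctrl, so its call is no evidence of a difference. The call of C4BPB was lost when any of 10 single libraries was left out (0.82 to 0.97, edgeR adjusted p up to 0.12) and without a filter on low counts (adjusted p = 0.069).

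**Figure D5:**
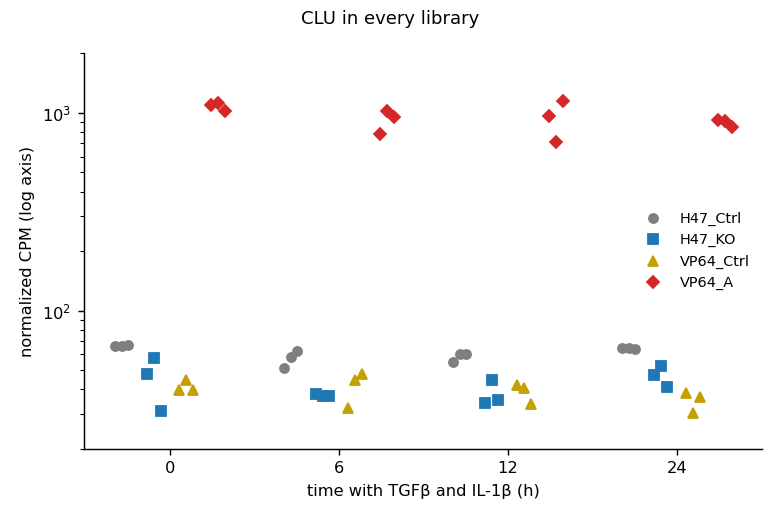
Normalized CPM of CLU (log axis) in every library by time (h) and group of cells, with a point for each library. The CLU points of VP64_A lie between 715 and 1153 and those of VP64_Ctrl between 30.5 and 47.5.

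Over the 16 condition means, the genes whose log2 normalized CPM was most like that of each tested member were listed among 10691 genes tested in both arms, as a description. C3 was most like MASTL, ESCO2 and DPP4 (Pearson r = 0.946, 0.929 and 0.929), C1R had C1R-2 and C1S among its closest genes (0.993 and 0.923), and C1S was most like C1R-2, C1R and THEMIS2 (0.933, 0.923 and 0.909). CD55 was most like SAA2, SAA1 and GADD45B (0.939, 0.914 and 0.903), and CD46 was most like MALAT1, TMBIM4 and CCNG1 (0.902, 0.894 and 0.872). Among the members themselves r was 0.883 for C3 with C1R, 0.839 for C3 with C1S, 0.842 for C3 with CD55, 0.620 for C1R with CD55 and 0.662 for C1S with CD55, and for CD46 with the others it lay between -0.33 and -0.02. The condition means share the 4 times and the arms, so these values say that the patterns over time were alike and nothing of shared control.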

How the data were processed

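The authors used FastQC for read quality, Trim Galore for trimming, SortMeRNA to take out ribosomal reads, STAR for alignment (GRCh38) and Salmon for gene quantification (versions not given in the sources used here). They deposited estimated counts, not normalized between libraries, for 29744 genes in 48 columns, of which 6.38% of values were not whole. They also deposited TPM, which is scaled for transcript length and to a fixed total per library. Salmon shares reads between similar transcripts, so near-identical rows are uncertain.

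Estimated counts were rounded. For each arm, edgeR 4.0.16 (R 4.3.3) was run on all 24 libraries, with a mean for each of the 8 conditions, using TMM scaling, filterByExpr (minimum count 10, minimum total 15) and the two-sided quasi-likelihood test, with Benjamini-Hochberg adjustment over 10962 (CRISPRko) or 10980 (CRISPRa) genes. The controls of both arms were compared in a fit of all 48 libraries (11422 genes). The fits were also run on simulated counts. These had the same spread between libraries for every gene and no shift in composition, so they do not test the scaling on which some calls depend. Counting intervals are exact at 95% and, like the floor of 3 counts, cover counting error only. Among 48 replicate pairs no identical libraries were found, and every pair differed beyond sampling noise (chi-square per degree of freedom at least 3.59).

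Groups came from descriptions, replicates from the labels. The members, the list of other complement genes and the markers were chosen with earlier results of these data known. Named genes were the 9 members, listed complement genes called in an average effect or at 24 h in a control, GLIS3 and cytokine targets as checks, and the 3 genes most like each tested member, of which some are not reported here. Alternatives were DESeq2 1.42.0, its size factors, no filter, fewer or all libraries, the replicate number as a block, log2(TPM + 1) or log2(TPM + 0.1) in limma 3.58.1, each library left out, and, added after seeing the data, library totals and C1R summed with C1R-2.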

Additional observations from a re-analysis of the deposited data

Results flagged for a closer look

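The cytokine response at 24 h over 0 h differed between the controls of the arms for 3 tested members, by the test of the difference itself. In the edgeR fit of 48 libraries the log2 response was larger in VP64_Ctrl than in H47_Ctrl by 3.56 ± 0.72 for C3, 1.33 ± 0.28 for C1R and 1.22 ± 0.28 for C1S (adjusted p = 0.0072, 0.0086 and 0.018). The call of C3 was lost without H47_Ctrl replicate 1 at 0 h (3.29, adjusted p = 0.096). The call of C1R was lost without H47_Ctrl replicate 2 at 0 h (1.16, adjusted p = 0.071) or VP64_Ctrl replicate 1 at 24 h (1.17, adjusted p = 0.074). The call of C1S was lost when any of 5 single libraries was left out, with the lowest value, 0.98, without VP64_Ctrl replicate 1 at 24 h (adjusted p = 0.16). The VP64_Ctrl libraries at 0 h also had the highest ratio of scaled to total library size, 1.21 to 1.84, and with libraries scaled by their totals, which leaves this ratio out, the differences were 3.46 for C3, 1.13 for C1R and 0.99 for C1S (edgeR adjusted p = 0.037, 0.22 and 0.32), of which C3 passed. The arm and the other ways in which these cells differ cannot be told apart.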

How the results depend on the processing

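Of 84 results for single genes, 84 kept their direction and side of the threshold with DESeq2 and with its size factors, 74 without a filter on low counts, 59 and 55 with limma on log2(TPM + 1) and log2(TPM + 0.1), and 64 with library totals. Library totals moved the median of all genes at 6, 12 and 24 h by -0.08, -0.16 and -0.22 in H47_Ctrl, -0.51, -0.31 and 0.07 in H47_KO, -0.73, -0.62 and -0.44 in VP64_Ctrl, and -0.24, -0.25 and -0.32 in VP64_A. Reversed values were CD55 in H47_KO at 6 h (-0.0950 and -0.0946 in the limma fits and -0.0907 with totals) and CD55 in VP64_Ctrl at 6 h (-0.34, -0.35 and -0.0314 in the same order) and at 12 h (-0.10 and -0.11 in the limma fits).

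Counts of member tests called moved as follows, and beyond the settings' own construction the cause was not tested. In H47_Ctrl 6 cytokine tests became 2 in both limma fits and 3 with totals, and in H47_KO 9 became 5 in both limma fits. The 4 calls of VP64_A by time became 1 in both limma fits. The knockout by time went from 0 to 1 with DESeq2, and the VP64_A interaction from 0 to 1 without the filter and with fewer libraries (only the conditions compared). The 3 calls of VP64_Ctrl against H47_Ctrl became 1 on log2(TPM + 1), 0 on log2(TPM + 0.1) and 1 with totals.

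Leaving out each library in turn gave 5 to 7 calls in H47_Ctrl, 7 to 9 in H47_KO, 10 in VP64_Ctrl, 7 to 8 in VP64_A, 2 to 4 for the VP64_A average, 3 to 4 by time, 0 to 1 for its interaction (1 without VP64_A replicate 3 at 6 h), 0 for the knockout and 2 between the arms' controls. It gave 1 to 4 for the response of VP64_Ctrl against H47_Ctrl, with 1 without H47_Ctrl replicate 1 or 2 at 0 h or VP64_Ctrl replicate 1 at 24 h.

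Same-numbered libraries did not deviate together (r from -0.19 to 0.20), and 9 and 10 of 24 libraries in the arms correlated best with their own number. With a replicate block the VP64_A average kept 3 calls, VP64_Ctrl had 11 and H47_KO 8, CD55 in H47_KO at 6 h had an edgeR adjusted p of 0.051 and C4BPB in H47_Ctrl at 12 h 0.056, and no other reported call was lost. The fit of only the conditions compared gives no value for averages, and the 48-library alternative none for the arms' controls, which use that fit already. With at most 14 counts of CFB in a library, depth limits CFB, CFD, CFI and SERPING1, and C3 at 0 h.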
